A study of Mus musculus with 15 samples.

Results

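The proteoglycans of the cardiac matrix were followed across infarction and EZH2 inhibition by the transcripts of 10 genes, Dcn, Bgn, Aspn, Lum, Fmod, Prelp, Ogn, Vcan, Acan and Comp. They were found in the table by gene symbol, and each symbol matched a single entry among the 54532 genes of the table. Of the 10, 9 passed the filter on low values used for testing, which asked for at least 1 FPKM (fragments per kilobase of gene length, scaled per library by the authors) in at least 5 of the 15 libraries. Acan alone did not pass, and its values are given without a test. No gene of the set passed through a single group, since the other 9 exceeded 1 FPKM in all 15 libraries.

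Libraries of poly-A RNA were prepared from left ventricles; the mice were C57BL/6JRj females, 12 to 18 weeks old, with hearts collected 8 days after surgery. Hearts of the GSK group came from mice given GSK-343, an inhibitor of the histone methyltransferase EZH2, at 20 mg/kg in 20% Captisol by intraperitoneal injection, once 6 h after surgery and then each day to day 7; these hearts are taken as infarcted from the treatment protocol, because the sample names give the compound only. In the MI group the left descending coronary artery was ligated permanently and the vehicle, 20% Captisol, was injected on the same schedule. The Sham group had sham surgery with vehicle, each group held 5 libraries, and the names of Sham replicates 1 and 2 mark each as mixed from 2 numbered samples. No genetic alteration is given for any group, and whole ventricle was used, so scar, border and remote muscle are not separated.

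Small leucine-rich proteoglycans are secreted proteins with a curved leucine-rich repeat domain that bind fibrillar collagen and set fibril diameter and spacing. Class I members (decorin, biglycan and asporin) carry chondroitin or dermatan sulfate chains, or none in the case of asporin, and bind growth factors such as TGF-beta. Class II members (lumican, fibromodulin and PRELP) may carry keratan sulfate, and osteoglycin belongs to class III. Versican and aggrecan are large hyaluronan-binding proteoglycans, and Comp is a pentameric thrombospondin that bridges collagen and proteoglycans. In the infarcted heart fibroblasts are a main source of these proteins, and the matrix they form replaces lost muscle.

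The libraries held 21534017 to 26843564 fragments, and 1 fragment on a gene of 1 kb was worth 0.0357 to 0.0478 FPKM. Transcripts of cardiac muscle were abundant throughout, Myh6, the alpha myosin heavy chain, averaging 2388 FPKM in GSK hearts, 1956 FPKM in MI hearts and 3232 FPKM in Sham hearts. Mitochondrially encoded genes took 31.8% to 48.7% of summed FPKM in GSK hearts, 23.2% to 40.6% in MI hearts and 41.2% to 42.2% in Sham hearts. GSK replicates 3 and 4, at 46.4% and 48.7%, and MI replicate 4, at 40.6%, stood apart from the other libraries of their groups. All values below are listed in the order of replicates 1 to 5.

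The deposited coordinates, on mm10, place 6 of the leucine-rich genes in 3 pairs of neighbours. On chromosome 10, Dcn (97479609 to 97518143, plus strand) and Lum (97565128 to 97572703, plus strand) are 47.0 kb apart. On chromosome 13, Aspn (49544443 to 49567565, plus strand) and Ogn (49608046 to 49624501, plus strand) are 40.5 kb apart. Fmod (134037254 to 134048277, plus strand) and Prelp (133910304 to 133921414, minus strand) lie 115.8 kb apart on chromosome 1. The others are single, Bgn at 73483602 to 73495933 on the plus strand of chromosome X, Vcan at 89655312 to 89742509 on the minus strand of chromosome 13, Acan at 79053483 to 79115099 on the plus strand of chromosome 7 and Comp at 70373558 to 70382066 on the plus strand of chromosome 8. Aspn shares 7 exonic bases with Cenpp on the opposite strand and Prelp shares 350 with the antisense transcript Gm15851, so fragments from those bases cannot be assigned with certainty where the strand setting is not known.

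The promoters of 4 genes are shown because 3 of them (Bgn, Vcan and Aspn) rose after infarction and the fourth, Ogn, is the chromosomal neighbour of Aspn and passed no test. Each run is the 250 bases before the RefSeq start on GRCm38.p6, read 5′ to 3′ on the strand of the gene, and capitals mark every match to 1 of 6 searched motifs on either strand. The runs are from chrX:73483351-73483600 (Bgn, plus strand), chr13:89742513-89742762 (Vcan, minus strand), chr13:49544193-49544442 (Aspn, plus strand) and chr13:49607765-49608014 (Ogn, plus strand).
Bgn: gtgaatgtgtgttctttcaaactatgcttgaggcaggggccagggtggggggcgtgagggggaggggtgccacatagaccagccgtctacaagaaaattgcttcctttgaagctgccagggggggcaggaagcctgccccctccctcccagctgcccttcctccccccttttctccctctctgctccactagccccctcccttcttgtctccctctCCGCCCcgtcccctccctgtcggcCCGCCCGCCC
Vcan: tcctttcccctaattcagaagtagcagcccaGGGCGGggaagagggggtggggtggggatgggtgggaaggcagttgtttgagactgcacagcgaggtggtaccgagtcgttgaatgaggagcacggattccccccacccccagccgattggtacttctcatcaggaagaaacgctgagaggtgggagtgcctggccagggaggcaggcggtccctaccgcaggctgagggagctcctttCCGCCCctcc
Aspn: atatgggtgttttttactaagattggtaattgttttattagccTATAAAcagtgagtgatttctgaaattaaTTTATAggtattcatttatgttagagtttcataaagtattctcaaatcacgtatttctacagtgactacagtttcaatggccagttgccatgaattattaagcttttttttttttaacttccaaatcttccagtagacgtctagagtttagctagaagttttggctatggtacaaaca
Ogn: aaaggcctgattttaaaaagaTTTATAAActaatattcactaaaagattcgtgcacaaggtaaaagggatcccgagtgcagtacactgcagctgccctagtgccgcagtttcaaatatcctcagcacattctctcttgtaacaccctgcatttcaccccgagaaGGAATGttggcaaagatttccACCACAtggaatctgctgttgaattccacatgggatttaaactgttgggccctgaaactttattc

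RefSeq windows were matched for 7 of the 10 genes, all but Dcn, Lum and Comp. The AP-1 motif searched was TGANTCA, a site of Fos and Jun proteins. That of TEAD factors was GGAATG, and the RUNX motif, bound by Runx proteins, was TGTGGT. A GC box, bound by Sp1 and its relatives, was written GGGCGG, and the TATA box of core promoters TATAAA. The last was the SOX motif ACAAAG. Among 32851 windows of the same length, 6.75% held the AP-1 letters, 12.6% TEAD, 14.0% RUNX, 32.7% the GC box, 12.4% the TATA box and 16.5% SOX. The capitals in Bgn are GC boxes that begin 34, 10 and 6 bases before the start, the last 2 overlapping, and those in Vcan are GC boxes at 219 and 10 bases. In Aspn they are matches to the TATA box letters at 207 and 178 bases. In Ogn they are overlapping matches to the TATA box letters at 229 and 227 bases, a TEAD match at 86 bases and a RUNX match at 65 bases. Whether any match is a working site was not tested. The windows of Bgn and Vcan were 64.4% and 62.4% G or C, that of Ogn 42.0% and that of Aspn 30.0%, against a median of 52.4% over all windows. Acan, not shown, held 3 GC boxes and 1 TEAD match. Neither AP-1 nor SOX letters occurred in any of the 7 windows, and Fmod and Prelp held none of the 6 motifs.

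Group means of the 10 transcripts ran from 0.121 FPKM, for Acan in Sham hearts, to 248 FPKM, for Bgn in MI hearts. Biglycan ranked 1 in GSK hearts (181 ± 50.4 FPKM) and in MI hearts (248 ± 78.7 FPKM), but 4 in Sham hearts (54.5 ± 14.0 FPKM; SD, n = 5 in each group). Decorin ranked 2 in GSK hearts at 175 ± 39.3 FPKM and 2 in MI hearts at 142 ± 39.0 FPKM, and 1 in Sham hearts at 129.8 ± 15.6 FPKM. Bgn exceeded Dcn in 2 of 5 GSK libraries and in 5 of 5 MI libraries. In Sham hearts Dcn stood above Lum without overlap, while Lum, Ogn and Bgn overlapped in pairs.

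**Figure D1:**
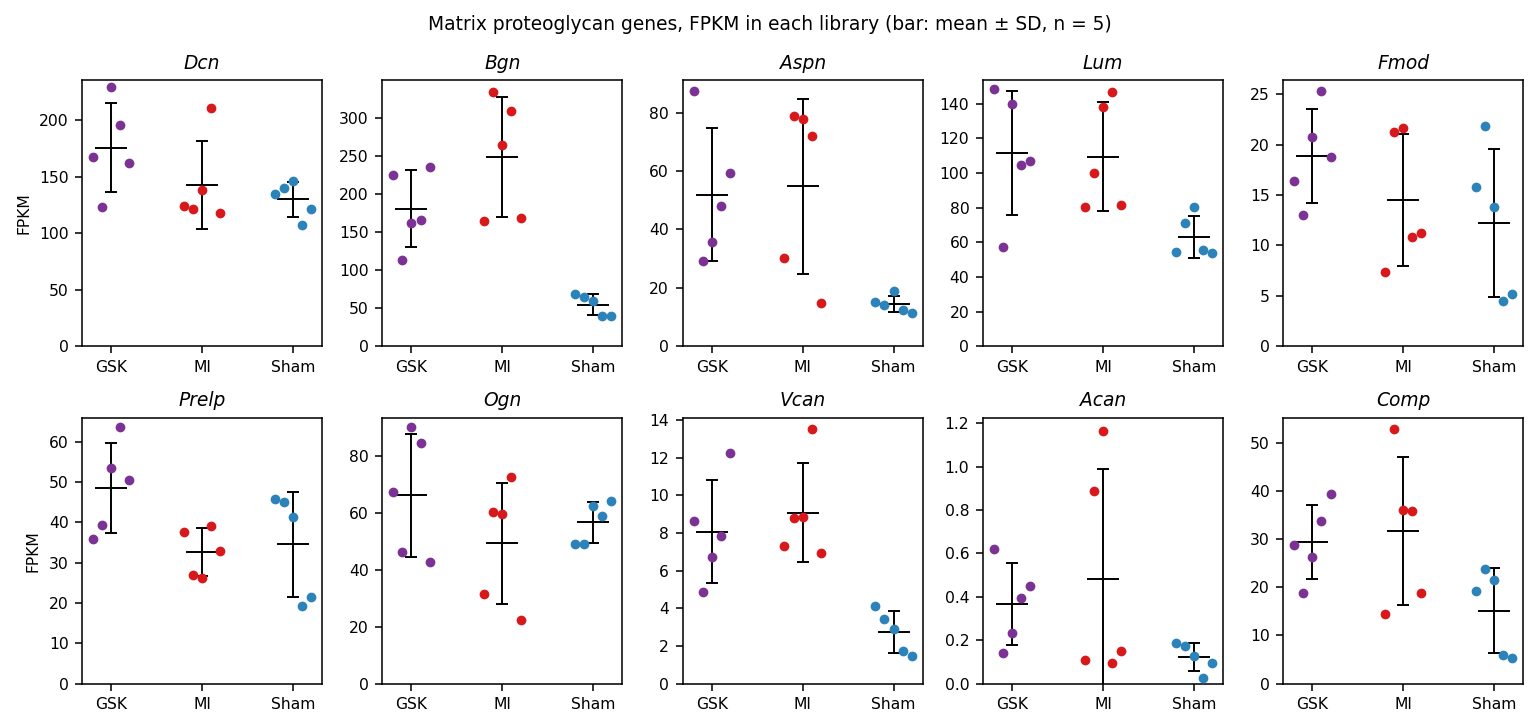
FPKM of each of the 10 genes (one panel each, linear axis from 0) in the 15 libraries; points are libraries, placed in replicate order within GSK, MI and Sham, and bars give the mean ± SD (n = 5; the lower bar of Acan in MI reaches below 0 and is cut). Bgn and Vcan lie above all Sham libraries in every GSK and MI library, whereas Dcn, Fmod, Prelp and Ogn overlap between groups, and Sham replicates 4 and 5 are the lowest of all libraries for Fmod, Prelp and Comp.

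The question of the first comparison is what infarction does under vehicle. Of the 9 genes tested, 5 rose in MI hearts (Bgn, Aspn, Vcan, Comp and Lum) and none fell, at a Benjamini-Hochberg adjusted p under 0.05 in limma. Over all 12585 genes tested, 21.9% were called higher and 43.8% were called in either direction. The median log2 difference of the 9 genes was 0.76, beside -0.02 over all genes. Dcn, Fmod, Prelp and Ogn did not pass the test.

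Among the class I genes, biglycan, which carries glycosaminoglycan chains and can also signal through Toll-like receptors once released, had 225, 113, 162, 166 and 236 FPKM in the GSK hearts, 165, 335, 265, 309 and 169 FPKM in the MI hearts, and 68.9, 64.6, 59.6, 40.0 and 39.3 FPKM in the Sham hearts. Every MI library lay above every Sham library, the lowest of MI being more than 2 times the highest of Sham. Bgn was 4.56-fold higher in the mean of MI hearts, with a log2 difference of 2.15 ± 0.25 (SE; adjusted p = 3.42e-05, limma).

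Asporin, which binds collagen and TGF-beta and has an aspartate-rich end, had 87.2, 29.3, 35.8, 48.0 and 59.1 FPKM in the GSK hearts, 30.3, 78.9, 77.6, 72.1 and 14.7 FPKM in the MI hearts, and 15.2, 14.2, 18.8, 12.5 and 11.4 FPKM in the Sham hearts. In MI hearts 4 of 5 libraries lay above all Sham libraries, and MI replicate 5 fell inside the Sham range. The log2 difference was 1.62 ± 0.40 (adjusted p = 0.00485, limma), and the spread of MI hearts was 5.36-fold between lowest and highest.

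Decorin, the class I proteoglycan that binds collagen I and limits TGF-beta, had 167, 123, 229, 195 and 162 FPKM in the GSK hearts, 124, 121, 138, 211 and 118 FPKM in the MI hearts, and 135, 139.5, 146, 107 and 121 FPKM in the Sham hearts. Only MI replicate 4 lay above the Sham range, and the other 4 MI libraries lay within it. The log2 difference of 0.11 ± 0.18 did not pass (adjusted p = 0.655, limma), with a 95% interval of -0.28 to 0.49.

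Of the class II genes, lumican, which regulates collagen fibril assembly, had 149, 57.4, 139.6, 105 and 107 FPKM in the GSK hearts, 80.1, 100.02, 138, 147 and 81.5 FPKM in the MI hearts, and 54.4, 70.8, 80.3, 55.6 and 53.6 FPKM in the Sham hearts. In MI hearts 3 of 5 libraries were above all Sham libraries by a wide margin, MI replicate 5 was above them by a little, and MI replicate 1 fell just under the highest Sham library. Lum rose by a log2 difference of 0.76 ± 0.24 in MI hearts (adjusted p = 0.02, limma), a 1.74-fold difference of means. Without MI replicate 3 the adjusted p was 0.0546.

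Fibromodulin, a lumican relative that guides collagen cross-linking, had 16.4, 13.0, 20.8, 25.3 and 18.7 FPKM in the GSK hearts, 7.38, 21.3, 21.6, 10.8 and 11.3 FPKM in the MI hearts, and 15.8, 21.8, 13.8, 4.46 and 5.16 FPKM in the Sham hearts. The groups overlapped, and Sham replicates 4 and 5 were the lowest of all 15 libraries. Its log2 difference between MI and Sham hearts was 0.34 ± 0.38 (adjusted p = 0.493, limma), with a 95% interval of -0.47 to 1.14.

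PRELP, which links basement membranes to the collagen beneath, had 35.9, 39.4, 53.4, 63.7 and 50.4 FPKM in the GSK hearts, 37.7, 26.8, 26.2, 39.2 and 32.8 FPKM in the MI hearts, and 45.7, 45.0, 41.2, 19.2 and 21.5 FPKM in the Sham hearts. All MI libraries lay inside the Sham range, which was itself split between replicates 1 to 3 at 41.2 to 45.7 FPKM and replicates 4 and 5 at 19.2 and 21.5 FPKM. The log2 difference of MI to Sham hearts was -0.01 ± 0.24 (adjusted p = 0.981, limma), with a 95% interval of -0.53 to 0.51.

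Osteoglycin, the class III proteoglycan also called mimecan, had 67.5, 46.3, 90.1, 84.7 and 42.8 FPKM in the GSK hearts, 31.6, 60.2, 59.7, 72.7 and 22.5 FPKM in the MI hearts, and 49.2, 49.0, 62.4, 58.9 and 64.2 FPKM in the Sham hearts. In MI hearts 2 of 5 libraries, replicates 1 and 5, lay under the lowest Sham library and replicate 4 above the highest. The log2 difference was -0.31 ± 0.29 in MI hearts (adjusted p = 0.397, limma), with a 95% interval of -0.93 to 0.30.

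Versican, the large chondroitin sulfate proteoglycan of provisional matrix, had 8.65, 4.84, 6.72, 7.84 and 12.3 FPKM in the GSK hearts, 7.28, 8.79, 8.86, 13.5 and 6.94 FPKM in the MI hearts, and 4.13, 3.40, 2.89, 1.72 and 1.48 FPKM in the Sham hearts. Each MI library exceeded each Sham library. Vcan rose by a log2 difference of 1.46 ± 0.24 (adjusted p = 0.000259, limma), a 3.33-fold difference of means. With Bgn it was 1 of 2 genes of the set whose MI and Sham libraries did not overlap, where 29.8% of all genes tested did not overlap in either direction and 15.7% were higher without overlap.

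Aggrecan, the large proteoglycan of cartilage, had 0.620, 0.140, 0.231, 0.393 and 0.448 FPKM in the GSK hearts, 0.110, 0.889, 1.17, 0.0960 and 0.151 FPKM in the MI hearts, and 0.187, 0.172, 0.128, 0.0253 and 0.0932 FPKM in the Sham hearts. These values rest on 25 to 127 fragments in GSK libraries, 15 to 239 in MI libraries and 4 to 32 in Sham libraries. MI replicates 2 and 3 held 186 and 239 fragments and stood above all Sham libraries, and the other 3 MI libraries held 15 to 29 and lay within the Sham range. Acan was not tested with the filter; fitted with limma across 31619 genes without it, its adjusted p was 0.228 for MI against Sham, 0.924 for GSK against MI and 0.454 for GSK against Sham.

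Comp had 28.9, 18.9, 26.4, 33.8 and 39.3 FPKM in the GSK hearts, 14.5, 52.9, 36.1, 35.9 and 18.8 FPKM in the MI hearts, and 19.3, 23.8, 21.4, 5.94 and 5.30 FPKM in the Sham hearts. In MI hearts replicates 2, 3 and 4 lay above all Sham libraries, and replicates 1 and 5 fell between the high and the low Sham libraries. The log2 difference was 1.10 ± 0.42 (adjusted p = 0.0434, limma). This call was lost in 13 of 26 alternative fits. It was lost without Sham replicate 4 (adjusted p = 0.115), Sham replicate 5 (0.119), MI replicate 2 (0.111), MI replicate 3 (0.0905) or MI replicate 4 (0.0810), and also without GSK replicate 1, 3 or 4 (0.0508 to 0.0513). Without both Sham replicates 4 and 5 the difference was 0.40 (adjusted p = 0.401).

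In bulk tissue, fewer cells of a type and less RNA per cell cannot be told apart. Pdgfra, the receptor that marks cardiac fibroblasts, averaged 8.02 ± 1.55 FPKM in MI hearts and 7.11 ± 0.957 FPKM in Sham hearts and did not pass the test (adjusted p = 0.343, limma). Tcf21, a fibroblast transcription factor, rose by 0.76 ± 0.17 on the log2 scale (adjusted p = 0.00256). Of 10 fibroblast markers 6 rose and 1 fell, and their summed level was 618 to 832 FPKM in MI hearts and 928 to 1352 FPKM in Sham hearts; Gsn, a broadly expressed gelsolin, averaged 304 FPKM in MI hearts and 862 FPKM in Sham hearts. Of 8 activated fibroblast markers 7 rose, their sum being 257 to 786 FPKM in MI hearts and 128 to 152 FPKM in Sham hearts. Postn, the matricellular periostin, was at 227 ± 113 FPKM in MI hearts and 12.3 ± 4.44 FPKM in Sham hearts, and Cthrc1 at 40.0 ± 34.0 FPKM in MI hearts and 0.436 ± 0.292 FPKM in Sham hearts. Of 8 macrophage markers 8 rose (580 to 988 FPKM in MI hearts, 273 to 342 FPKM in Sham hearts), and of 8 cardiomyocyte markers 6 fell (9214 to 18847 FPKM in MI hearts, 14878 to 18457 FPKM in Sham hearts). With quantile normalization 3 of the cardiomyocyte markers fell and 1 rose, and their median log2 difference was -0.32, against -0.76 as deposited. Of the markers of smooth muscle and pericytes 1 rose and 2 fell of 6 tested, of endothelium 2 rose and 0 fell of 7, of epicardium or mesothelium 3 and 0 of 7, of adipocytes 0 and 2 of 4, and of Schwann cells 0 and 1 of 2. Over all 12585 genes tested 21.9% were called higher and 21.9% lower, so these small counts are not particular to such cell types. Without Sham replicates 4 and 5, 0 markers of endothelium, 0 of epicardium or mesothelium and 0 of Schwann cells were called, of smooth muscle and pericytes 0 rose and 2 fell, and of adipocytes 3 fell. Without MI replicate 4 and GSK replicates 3 and 4, 5 markers of epicardium or mesothelium and 1 of endothelium rose, and 1 of adipocytes fell. No fibroblast, activated fibroblast, macrophage or cardiomyocyte marker was at 0 in any library, and the part of cell composition in the differences of the 10 genes was not tested.

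**Figure D2:**
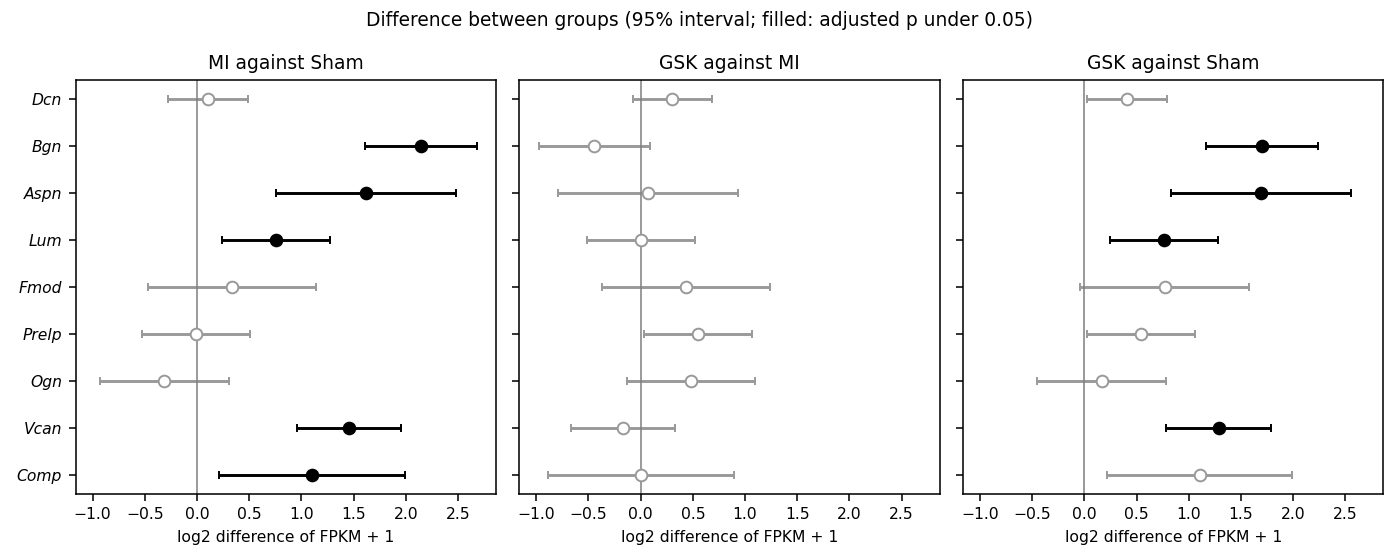
Log2 differences of FPKM + 1 for the 9 tested genes (down the page) in MI against Sham, GSK against MI and GSK against Sham; bars are 95% intervals from limma, filled black points have an adjusted p under 0.05 and open grey points do not. Bgn, Aspn, Lum and Vcan are filled in both comparisons with Sham, Comp in MI against Sham, and no gene in GSK against MI.

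The second comparison asks whether the inhibitor moved these genes after infarction. None of the 9 genes passed in GSK against MI, where limma called 0 of 12585 genes (0%). The smallest adjusted p over all genes was 0.0536, for Zbtb20, 2638 genes (21%) had an unadjusted p under 0.05, and limma-voom on recovered fragments called 1 gene higher and 0 lower. The count over all genes depended on single libraries, with 204 genes higher and 188 lower without MI replicate 1, 154 and 134 without GSK replicate 5, 19 and 7 without MI replicate 4, and 6 and 1 without GSK replicate 1. None of the 9 genes was called in any of these fits. With all libraries, no cell type marker was called in GSK against MI. The median log2 difference was -0.77 for activated fibroblast, -0.38 for macrophage and 0.34 for cardiomyocyte markers. The part of cell composition in the differences below was not tested.

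Prelp was the 1 gene of the 9 with an unadjusted p under 0.05. It averaged 48.6 ± 11.2 FPKM in GSK hearts and 32.6 ± 5.98 FPKM in MI hearts, and 4 of 5 GSK libraries lay above the highest MI library. The log2 difference was 0.55 ± 0.24, with a 95% interval of 0.03 to 1.07 and an adjusted p of 0.212 in limma. GSK replicates 3 and 4, the libraries with high mitochondrial shares, had the highest values, 53.4 and 63.7 FPKM, and without them and MI replicate 4 the difference was 0.43 (adjusted p = 0.628).

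For the other genes the intervals covered 0. Bgn averaged 181 ± 50.4 FPKM in GSK hearts and 248 ± 78.7 FPKM in MI hearts, with a log2 difference of -0.44 (95% interval -0.98 to 0.09), and 2 of 5 GSK libraries lay under the lowest MI library. Ogn differed by 0.48 (interval -0.14 to 1.10), Fmod by 0.43 (interval -0.37 to 1.24) and Dcn by 0.30 (interval -0.08 to 0.69). Vcan differed by -0.17 (interval -0.67 to 0.33). Aspn, Lum and Comp had differences of 0.07, 0.0029 and 0.0015, with intervals of -0.79 to 0.93, -0.51 to 0.52 and -0.89 to 0.89. No gene of the set separated GSK from MI libraries without overlap, as 2.01% of all genes did.

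The third comparison sets infarcted hearts under GSK-343 against sham hearts under vehicle; it shares the Sham libraries with the first and the GSK libraries with the second. Of the 9 genes, 4 rose in GSK hearts (Bgn, Aspn, Vcan and Lum) and none fell, where 10.8% of all genes tested were called higher, 7.58% lower and 18.3% in either direction. The median log2 difference of the 9 genes was 0.77, beside -0.02 over all genes. Bgn was 1.70 ± 0.25 higher on the log2 scale (adjusted p = 0.000713, limma), Aspn 1.69 ± 0.40 (adjusted p = 0.0117), Vcan 1.29 ± 0.24 (adjusted p = 0.00287) and Lum 0.76 ± 0.24 (adjusted p = 0.0415). For Bgn, Aspn and Vcan every GSK library exceeded every Sham library, where 18.4% of all genes did not overlap in either direction and 10.6% were higher without overlap. In means, Bgn was 3.31-fold, Aspn 3.59-fold, Vcan 2.96-fold and Lum 1.77-fold higher in GSK hearts.

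Markers of some cell types moved in this comparison too. Of 8 activated fibroblast markers 7 rose in GSK hearts, with a median log2 difference of 2.07 and a sum of 171 to 551 FPKM in GSK hearts and 128 to 152 FPKM in Sham hearts. Of 8 macrophage markers 7 rose, with a median of 0.91 and a sum of 404 to 921 FPKM in GSK hearts and 273 to 342 FPKM in Sham hearts. Of 10 fibroblast markers 5 rose and 1 fell, with a median of 0.61, and of 8 cardiomyocyte markers 1 fell. Of 7 endothelium markers 2 rose, or 0 without Sham replicates 4 and 5. No tested marker of smooth muscle and pericytes, epicardium or mesothelium, adipocytes or Schwann cells was called. Without Sham replicates 4 and 5, 2 activated fibroblast, 4 macrophage and 4 fibroblast markers rose, and none of these or of the cardiomyocyte markers fell. Their part in the differences of the proteoglycan genes was not tested.

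Comp had a log2 difference of 1.11 ± 0.42 in GSK hearts, nearly the size seen in MI hearts, and did not pass (adjusted p = 0.0759, limma). Fmod at 0.77 (adjusted p = 0.163), Prelp at 0.54 (0.127), Dcn at 0.41 (0.117) and Ogn at 0.17 (0.716) did not pass either. Dcn lay above all Sham libraries in 4 of 5 GSK libraries. The call of Lum was lost on leaving out any of GSK replicates 1, 3, 4 and 5 or Sham replicates 1, 2, 4 and 5, with an adjusted p of up to 0.106. Without Sham replicates 4 and 5 together, 2 genes of the set were called, Aspn at an adjusted p of 0.0998 and Lum at 0.225 being lost. Over all genes, 336 were then called higher, where 1354 were called higher with all libraries.

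Scaling moved the whole table in this comparison more than in the others. Of the genes called in GSK against Sham, 58.7% were higher as deposited and 82.2% when mitochondrially encoded genes were left out and library totals equalised, and the median difference of all genes changed to 0.09, against -0.02 as deposited. In MI against Sham 49.99% of the called genes were higher as deposited and 63.6% under that scaling. The same 5 and 4 of the 9 tested genes of the set were called under it, in MI against Sham and GSK against Sham.

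Ratios of 2 genes in a library do not depend on its scaling, so pairs were compared within libraries. Of 15 tests, 5 ratios in 3 comparisons, 7 had a Benjamini-Hochberg adjusted p under 0.05 in exact two-sided permutation tests over all assignments of 5 against 5 libraries. The smallest p these can give is 0.00794, which becomes 0.0198 after adjustment here. Bgn/Dcn, Lum/Dcn and Vcan/Dcn share a denominator. Each called ratio sets a gene called alone in that comparison over Dcn or Ogn, which did not pass. The ratio calls are therefore not independent of each other or of the single-gene tests.

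The Bgn/Dcn ratio of FPKM was 1.35, 0.919, 0.707, 0.851 and 1.45 in GSK hearts, 1.33, 2.76, 1.92, 1.47 and 1.43 in MI hearts, and 0.511, 0.463, 0.407, 0.373 and 0.324 in Sham hearts. Neither GSK nor MI libraries overlapped with Sham libraries. The mean log2 ratio was 2.06 higher in MI than in Sham hearts and 1.31 higher in GSK than in Sham hearts (exact permutation p = 0.00794 and adjusted p = 0.0198 for each, n = 5 a group). Between GSK and MI hearts it differed by -0.75 (exact permutation p = 0.0476, adjusted p = 0.0893), and the libraries overlapped.

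The neighbours Aspn and Ogn had an Aspn/Ogn ratio of 1.29, 0.633, 0.397, 0.567 and 1.38 in GSK hearts, 0.960, 1.31, 1.30, 0.991 and 0.655 in MI hearts, and 0.310, 0.290, 0.302, 0.213 and 0.178 in Sham hearts. All GSK and all MI libraries exceeded all Sham libraries. The log2 ratio was 2.003 higher in MI than in Sham hearts and 1.59 higher in GSK than in Sham hearts (exact permutation adjusted p = 0.0198 for each), and -0.41 between GSK and MI hearts (adjusted p = 0.375).

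Lum/Dcn, the pair on chromosome 10, had a log2 ratio 0.66 higher in MI than in Sham hearts without overlap (exact permutation adjusted p = 0.0198) and 0.36 higher in GSK than in Sham hearts (adjusted p = 0.119). Vcan/Dcn was 1.69 higher in MI than in Sham hearts (adjusted p = 0.0198) and 1.19 higher in GSK than in Sham hearts (adjusted p = 0.0340), where the libraries overlapped. The Vcan/Dcn call of GSK against Sham was lost on leaving out any of 8 single libraries. Between GSK and MI hearts Vcan/Dcn differed by -0.50 (exact permutation adjusted p = 0.131), and without GSK replicate 5 by -0.69, which passed (adjusted p = 0.0340). Fmod/Prelp, the pair on chromosome 1, did not pass in any comparison (adjusted p of 0.258 to 0.833), with a difference of 0.39 between MI and Sham hearts.

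**Figure D3:**
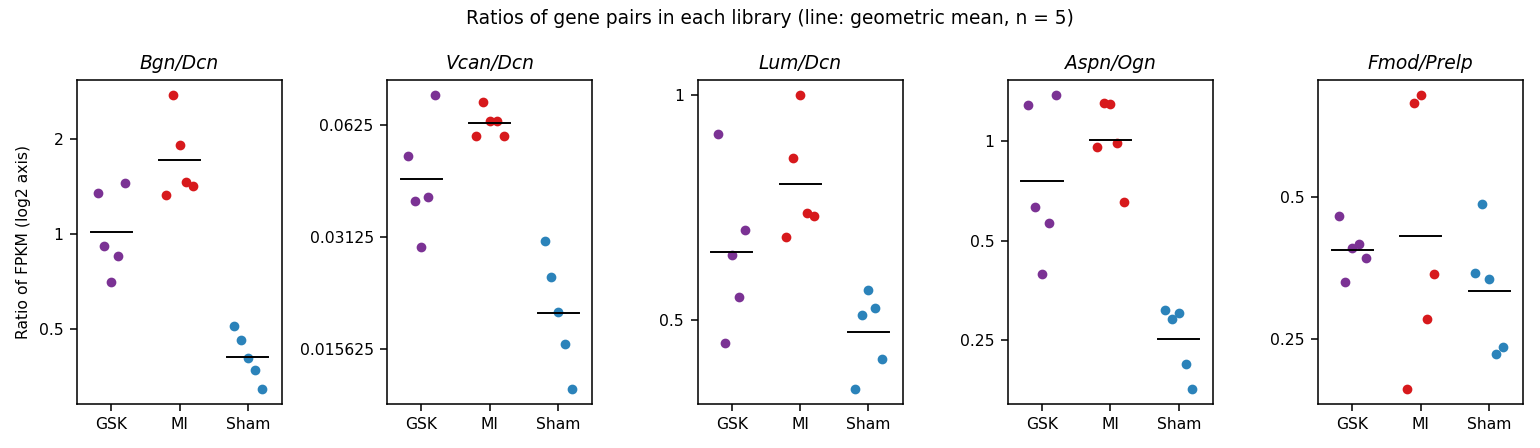
Ratio of FPKM (log2 axis) of 5 gene pairs in each library; points are libraries of GSK, MI and Sham in replicate order and lines are geometric means (n = 5). Bgn/Dcn and Aspn/Ogn lie above all Sham libraries in all GSK and MI libraries, while Fmod/Prelp overlaps between all groups.

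The make-up of the set followed the same genes. The summed FPKM of the 10 genes was 446 to 786 in GSK hearts (median 729.7), 475 to 911 in MI hearts (median 772) and 306 to 447 in Sham hearts (median 408). The share of Bgn in that sum averaged 26.1% ± 4.53 in GSK hearts, 35.7% ± 3.39 in MI hearts and 14.1% ± 1.87 in Sham hearts (SD, n = 5). The share of Dcn averaged 25.6% ± 3.69 in GSK hearts, 21.2% ± 4.47 in MI hearts and 34.1% ± 2.16 in Sham hearts. Ogn held 9.65% ± 2.47 in GSK hearts, 6.85% ± 1.34 in MI hearts and 15.3% ± 4.01 in Sham hearts, and Lum stayed between 15.8% and 16.5% in group means. Aspn held 7.41% ± 2.39 in GSK hearts, 7.39% ± 2.88 in MI hearts and 3.77% ± 0.383 in Sham hearts. Acan never exceeded 0.151%. Shares of one sum depend on each other and were not tested.

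**Figure D4:**
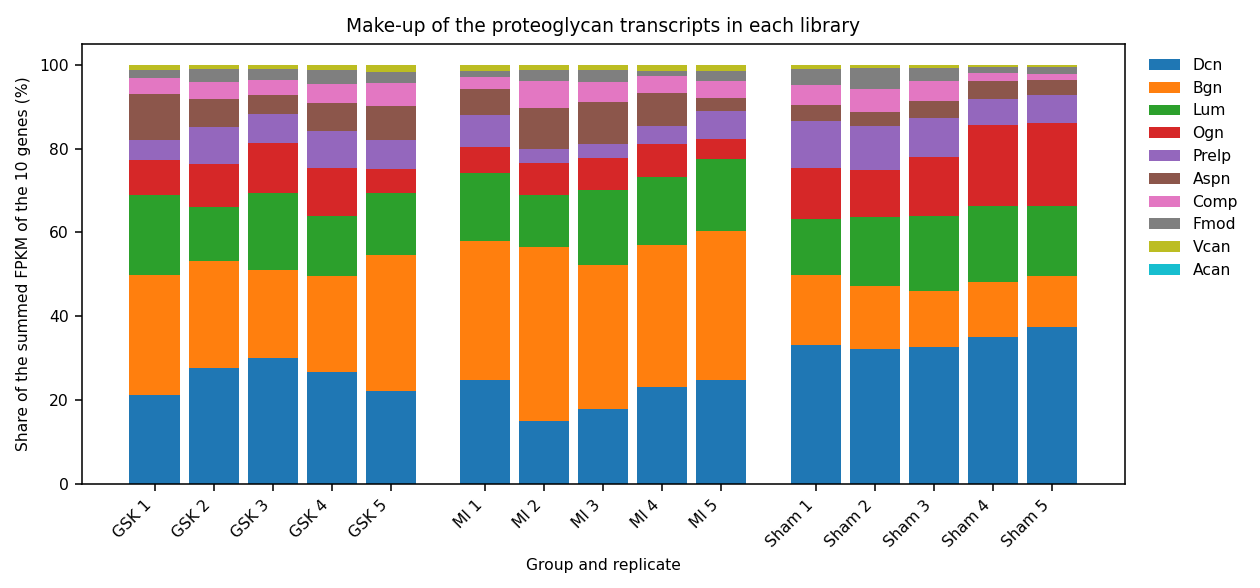
Share of each gene in the summed FPKM of the 10 genes (stacked bars, percent), one bar per library in the order GSK, MI and Sham. The Bgn share is 33.1% to 41.5% in MI libraries and 12.2% to 16.9% in Sham libraries, and the Dcn share is the larger of the pair in every Sham library.

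Pairs of the set differed in how closely they moved within groups. After group means were removed, the strongest of 36 pairwise Pearson correlations of log2(FPKM + 1) over the 15 libraries was between Fmod and Comp (r = 0.90), followed by Bgn and Comp (0.88), Bgn and Vcan (0.87) and Bgn and Aspn (0.82); the lowest was -0.06, between Prelp and Ogn; all share libraries and scaling and are given as a description. Across the same libraries with group means kept, the 2 genes most like each member were Col8a1 (r = 0.99) and Postn (0.99) for Bgn, Cilp (0.98) and Dio2 (0.97) for Vcan, Naalad2 (0.97) and Sh3d19 (0.97) for Aspn, and Igf1 (0.94) and Sgce (0.93) for Lum. They were Reck (0.91) and Fchsd2 (0.90) for Dcn, Mier1 (0.93) and AW549877 (0.92) for Ogn, and Gm39214 (0.90) and Myot (0.87) for Prelp. For Fmod they were 1500015O10Rik (0.87) and Comp (0.87), and for Comp Fibin (0.93) and Frzb (0.93). Col8a1, a short-chain collagen, averaged 32.8 ± 16.9 FPKM in GSK hearts, 53.1 ± 28.3 FPKM in MI hearts and 4.26 ± 1.80 FPKM in Sham hearts.

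Sham hearts themselves differed in the set. Sham replicates 4 and 5 had 5.94 and 5.30 FPKM of Comp where replicates 1 to 3 had 19.3 to 23.8 FPKM, 4.46 and 5.16 FPKM of Fmod against 13.8 to 21.8 FPKM, and 19.2 and 21.5 FPKM of Prelp against 41.2 to 45.7 FPKM. Both replicates 4 and 5 lay under replicates 1 to 3 for 8 of the 10 genes, all but Lum and Ogn, a pattern seen only after the values were known. The share of all genes with this split was not computed, so the count cannot be read as particular to this set. Chad, the leucine-rich chondroadherin of cartilage and tendon, had 5.84, 6.32, 18.7, 29.4 and 4.03 FPKM in the GSK hearts, 2.24, 1.40, 0.564, 3.04 and 5.75 FPKM in the MI hearts, and 14.7, 16.8, 16.1, 2.05 and 1.08 FPKM in the Sham hearts. It was high in the same Sham replicates 1 to 3 and in GSK replicates 3 and 4, and it did not pass in any comparison (adjusted p = 0.123 for MI against Sham, limma). Epyc, a class III relative in the cluster of Lum and Dcn on chromosome 10, had 0.670, 0.770, 2.57, 2.64 and 1.03 FPKM in the GSK hearts, 0.814, 0.363, 0.214, 1.16 and 1.015 FPKM in the MI hearts, and 1.83, 1.82, 3.03, 0.350 and 0.362 FPKM in the Sham hearts, high in the same 5 libraries.

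A list of 10 markers of cartilage, tendon or late scar fibroblasts included Chad. The sum of the 10 was 18.0, 15.3, 27.3, 37.8 and 18.7 FPKM in GSK hearts, 9.39 to 16.2 FPKM in MI hearts, and 27.3, 27.7, 24.8, 10.6 and 4.56 FPKM in Sham hearts. Chad gave 18.7 and 29.4 FPKM of this sum in GSK replicates 3 and 4. It gave 14.7, 16.8 and 16.1 FPKM in Sham replicates 1 to 3. The high sums in these libraries thus rest largely on Chad, and the other markers were not summed apart. Col2a1, the main cartilage collagen, averaged at most 0.139 FPKM in any group, Ibsp was at 0 in 3 GSK, 5 MI and 1 Sham libraries, Matn3 in 2, 2 and 3, Col10a1 in 1, 0 and 3, Col2a1 in 0, 0 and 1, and Tnmd in 0, 0 and 2. Of these 10 markers 4 were tested, and 1 rose and 1 fell in MI hearts, or 1 and 2 without Sham replicates 4 and 5. Sham replicates 1 and 2 are the mixed libraries, and replicate 3 is not. Their part in the levels of Comp, Fmod and Prelp was not tested.

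**Figure D5:**
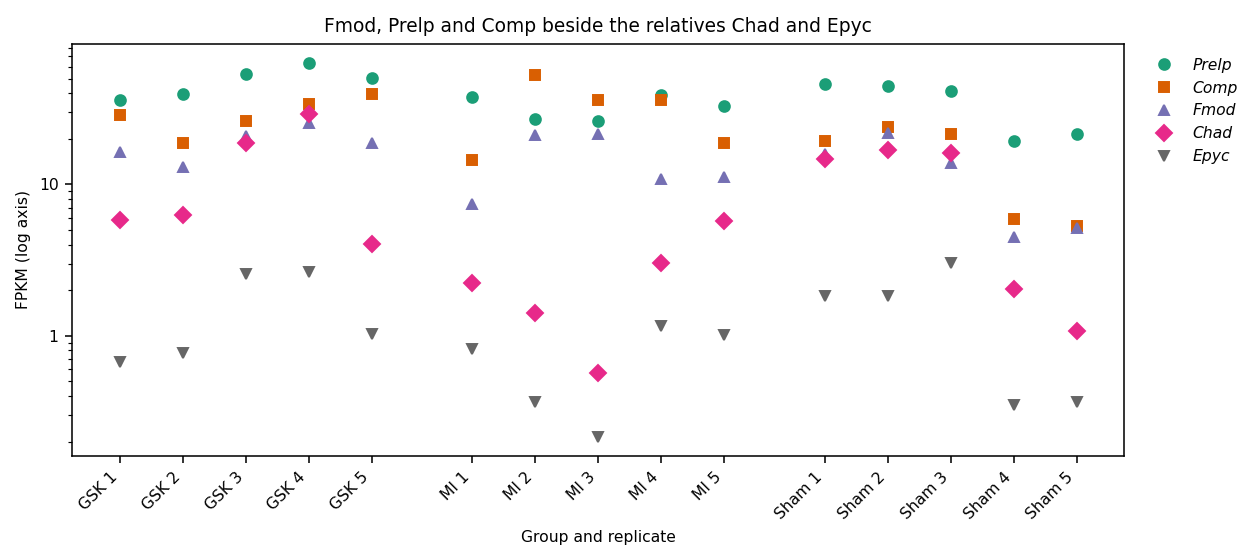
FPKM (log axis) of Prelp, Comp and Fmod beside the leucine-rich relatives Chad and Epyc in each library, in the order GSK, MI and Sham. All 5 genes are lower in Sham replicates 4 and 5 than in Sham replicates 1 to 3, and Chad is at 18.7 and 29.4 FPKM in GSK replicates 3 and 4 but at or under 6.32 FPKM in the other GSK hearts.

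Leaving out Sham replicates 4 and 5 lowered the number of genes called higher to 3 of 9 in MI against Sham (Bgn, Aspn and Vcan). Calls over all 12585 genes fell as well, from 2757 to 1974 higher in MI against Sham and from 1354 to 336 in GSK against Sham. The list counts given without these libraries stand beside those lower totals. Bgn kept a log2 difference of 1.87 (adjusted p = 0.000987, limma), Aspn 1.46 (0.0403) and Vcan 1.15 (0.00425). Without MI replicate 4 and GSK replicates 3 and 4, which stood apart by mitochondrial share, the same 3 genes were called in MI against Sham, and Bgn, Aspn and Vcan in GSK against Sham. Over all genes, 2867 were then called higher in MI against Sham and 1632 in GSK against Sham.

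The chromosomal neighbours of the leucine-rich clusters were low except for Ecm2, and none of those tested passed. Kera averaged 0.145 ± 0.154 FPKM in GSK hearts, 0.0970 ± 0.0797 FPKM in MI hearts and 0.246 ± 0.124 FPKM in Sham hearts, and Optc at most 0.151 FPKM in any group, so neither was tested. Omd, which lies 15.2 kb from Ogn, averaged 1.43 ± 0.841 FPKM in GSK hearts, 0.807 ± 0.348 FPKM in MI hearts and 0.817 ± 0.317 FPKM in Sham hearts. Ecm2, 11.7 kb from Aspn, averaged 8.91 ± 2.16 FPKM in GSK hearts, 6.75 ± 1.68 FPKM in MI hearts and 8.35 ± 0.399 FPKM in Sham hearts, with a log2 difference of -0.30 in MI hearts (adjusted p = 0.148, limma). Aspn was called beside 3 neighbours on chromosome 13 (Ogn, Omd and Ecm2) that were not. Of 11 other small leucine-rich proteoglycans 6 were tested and 1 rose in MI hearts, Tsku, a secreted tsukushi that binds BMP and Wnt pathway proteins, at 4.92 ± 1.24 FPKM in MI hearts and 1.38 ± 0.303 FPKM in Sham hearts (adjusted p = 0.000144). None of the 6 fell, and their median log2 difference was -0.16; without Sham replicates 4 and 5, 1 rose and 2 fell.

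The fibrillar and associated collagens that these proteins bind all rose in MI hearts, 10 of 10 tested, with a median log2 difference of 1.88 beside -0.02 for all genes. Col1a1 averaged 232 ± 139 FPKM in MI hearts and 27.1 ± 6.48 FPKM in Sham hearts (log2 difference 2.89 ± 0.48, adjusted p = 0.000321, limma). Col3a1 averaged 330.1 ± 132 FPKM in MI hearts and 43.4 ± 6.76 FPKM in Sham hearts, and Col1a2 136 ± 75.7 FPKM in MI hearts and 15.9 ± 3.16 FPKM in Sham hearts. In GSK against Sham 10 of 10 rose as well, with a median of 1.45, and in GSK against MI none passed. Without Sham replicates 4 and 5, 10 of 10 were called in MI against Sham and 3 of 10 in GSK against Sham.

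Enzymes that build the linker and the chondroitin or dermatan sulfate chains rose in MI hearts in 18 of 24 genes tested, and 1 fell, with a median log2 difference of 0.45. Chpf, a chondroitin polymerising factor, averaged 25.5 ± 4.07 FPKM in MI hearts and 9.87 ± 1.24 FPKM in Sham hearts (log2 difference 1.28 ± 0.17, adjusted p = 7.97e-05, limma). Its relative Chpf2 rose by 0.81 ± 0.16 and Chst12, a chondroitin 4-O-sulfotransferase, by 0.75 ± 0.13 on the log2 scale. In GSK against Sham 12 of 24 rose and none fell. Without Sham replicates 4 and 5, 12 of 24 rose and none fell in MI against Sham, and 1 of 24 rose in GSK against Sham.

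Of 5 tested genes of keratan sulfate synthesis, the chain of class II members, 2 rose and 1 fell in MI hearts, with a median of -0.03. Chst1, the keratan sulfate sulfotransferase, rose by 0.94 ± 0.16 (adjusted p = 0.000362, limma) and B4galt1, a galactosyltransferase of many glycans, by 0.61 ± 0.08 (adjusted p = 9.18e-05), while St3gal3, a sialyltransferase, fell by 0.52 ± 0.16 (adjusted p = 0.0189). That fall was lost without Sham replicates 4 and 5, and also without MI replicate 4 and GSK replicates 3 and 4, while 2 of the 5 genes rose in both. Beside these counts, 43.8% of all genes tested were called in either direction in MI against Sham, and the same share stands beside the next list. Among 7 tested genes of hyaluronan handling, the ligand of versican and aggrecan, 3 rose and none fell, with a median of 0.27, and 1 fell without MI replicate 4 and GSK replicates 3 and 4. Those that rose were the hyaluronan receptors Cd44 (1.27 ± 0.22) and Hmmr (0.99 ± 0.14, a gene also known for its role at the mitotic spindle) and Tnfaip6 (1.11 ± 0.29), which transfers protein chains to hyaluronan.

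Proteases that cut these proteoglycans rose in 9 of 13 genes and 1 fell in MI hearts, with a median of 0.85. Mmp14, a membrane collagenase, averaged 25.8 ± 12.8 FPKM in MI hearts and 5.42 ± 0.471 FPKM in Sham hearts (adjusted p = 0.000439, limma). Adamts4, which cleaves aggrecan and versican, averaged 6.48 ± 3.70 FPKM in MI hearts and 0.892 ± 0.285 FPKM in Sham hearts (adjusted p = 9.5e-05), and Adamts8 3.28 ± 1.20 FPKM in MI hearts and 0.447 ± 0.213 FPKM in Sham hearts (adjusted p = 0.00369). In GSK against Sham 6 rose and 1 fell, and without Sham replicates 4 and 5 none was called.

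The other thrombospondins, which are the family of Comp, and the matrilins, a separate family of matrix adaptor proteins, rose in 5 of 5 genes tested in MI hearts, with a median of 1.19. Thbs4 averaged 55.8 ± 27.4 FPKM in MI hearts and 7.24 ± 4.94 FPKM in Sham hearts, Thbs1 37.2 ± 20.9 FPKM in MI hearts and 8.17 ± 4.97 FPKM in Sham hearts, and Thbs3 7.45 ± 1.95 FPKM in MI hearts and 2.68 ± 0.654 FPKM in Sham hearts. Of the 5, 3 were called without Sham replicates 4 and 5. Among 17 tested matrix, cell-surface and link proteoglycan genes outside the set 9 rose and 3 fell in MI hearts, led by the syndecans Sdc1 (1.31 ± 0.27) and Sdc3 (0.88 ± 0.16) and the basement membrane collagen Col18a1 (1.25 ± 0.23). Without Sham replicates 4 and 5, 7 rose and 1 fell.

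Receptors and signalling partners rose in 12 of 14 genes tested in MI hearts and none fell, with a median of 0.68. Tgfb3, a ligand bound by class I proteoglycans, averaged 23.4 ± 12.2 FPKM in MI hearts and 7.19 ± 1.37 FPKM in Sham hearts (adjusted p = 0.00512, limma). Cd14, the co-receptor of Toll-like receptors, averaged 12.1 ± 2.62 FPKM in MI hearts and 5.04 ± 1.28 FPKM in Sham hearts (adjusted p = 0.000171), and Wisp1, a matricellular protein that binds decorin and biglycan, 4.11 ± 2.72 FPKM in MI hearts and 0.837 ± 0.169 FPKM in Sham hearts (adjusted p = 0.00578). In GSK against Sham 8 of 14 rose, 3 of 14 without Sham replicates 4 and 5, and 5 of 14 without MI replicate 4 and GSK replicates 3 and 4. No gene of the pathway lists was called in GSK against MI, where the medians of those lists ran from -0.52 for thrombospondins and matrilins to 0.37 for the other small leucine-rich proteoglycans.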

How the data were processed

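Poly-A RNA of left ventricles was read as 150 nt paired ends in 15 libraries, 3 groups of 5, described as independent mice per the labels' protocols. The sample names carry S5 both in a mixed Sham library (replicate 2) and in an MI library (replicate 3), and the labels do not say whether it is the same animal number. The authors deposited FPKM values with gene lengths and positions on mm10. The submitters' processing notes name HISAT2, featureCounts, Subread, DESeq2 and R 3.5.1, in no stated role or order. Annotation release, strand setting and filters: not given in the sources used here. All 10 genes have identical coordinates in GENCODE vM21. Multiplied by length, 100% of values came out as whole fragments (within 0.01), 21534017 to 26843564 a library. Depth limits Acan most.

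Values were taken as log2(FPKM + 1); the pseudocount of 1 understates changes of low genes. A gene was tested if 5 or more libraries reached 1 FPKM, which left 12585. They were fitted with limma 3.58.1 in R 4.3.3 (group means of all 15 libraries, mean trend), with Benjamini-Hochberg adjustment over all of them at 0.05. Differences and SE are on that log2 scale, and each adjusted p of a single gene is from limma. The fit was tested on simulated data. Log2 ratios of FPKM were tested by exact two-sided permutation, with adjustment over 15 tests. Lists are given as counts and medians.

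The members and lists were chosen with earlier results of these data known. Named are all 10 members, from each list the 3 called genes of largest difference in MI against Sham, the 2 genes most like each member, leucine-rich chromosomal neighbours (Epyc, Kera, Omd, Ecm2 and Optc), and Pdgfra, Tcf21, Postn and Cthrc1 of the marker lists. Myh6, Gsn, Zbtb20, Chad and the cartilage markers listed at 0 were singled out after their values were seen. Alternatives covered the pseudocount, filter, scaling, trend, groups fitted, a replicate block, voom on recovered fragments, and libraries left out singly or together. Leaving out Sham replicates 4 and 5 together was chosen after seeing the data.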

Additional observations from a re-analysis of the deposited data

Results flagged for a closer look

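Groups of 5 libraries were examined on log2(FPKM + 1) for the 10 genes and on log2 ratios of FPKM for the 5 gene pairs. Of 45 such groups, 1 held a library far from the others, and chance alone marks about 1 in 20. In MI hearts, Dcn had 211 FPKM in replicate 4 where the other 4 libraries had 118 to 138 FPKM. The gap of that library to its nearest neighbour was 0.7345 of the whole range, above Dixon's 95% critical value for 5 libraries. MI replicate 4 also had the highest mitochondrial share of the MI libraries, 40.6%, and the part of that share in its Dcn level was not tested.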

How the results depend on the processing

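Over 26 alternative fits, 636 of 702 differences of single members kept their direction and side of the threshold. Bgn and Vcan were called in both comparisons with Sham under all 26, and Aspn in MI against Sham under all 26. No member was called in GSK against MI under any, so all directions that turned there belong to differences that did not pass.

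Members called higher in MI against Sham numbered 3 without MI replicate 4 and GSK replicates 3 and 4, 3 without Sham replicates 4 and 5 (an alternative chosen after seeing the data), and 3 to 5 on leaving out single libraries, with 3 without MI replicate 3. In GSK against Sham they numbered 2 without Sham replicates 4 and 5, and 3 to 5 on leaving out single libraries. Of the 7 ratios called, 6 to 7 were called on leaving out single libraries and 0 in each of the 3 alternatives that leave out several. With fewer libraries there are fewer assignments, which raises the smallest p, and its adjusted value also depends on how many ratios reach it. The Vcan/Dcn ratio of GSK against Sham was lost in 8 of 15 single-library fits (adjusted p up to 0.0680).

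Lum in MI against Sham was lost without the mixed Sham libraries (adjusted p = 0.0642), without MI replicate 3 (0.0546), without the 3 libraries that stand apart (0.0565) and without Sham replicates 4 and 5 (0.120). Its call in GSK against Sham was lost in 13 of 26, as was that of Comp in MI against Sham, and that of Aspn in GSK against Sham in 1 (without Sham replicates 4 and 5). Without the mixed Sham libraries Fmod, Prelp and Comp passed in GSK against Sham (adjusted p = 0.0431, 0.0438 and 0.0422, limma). That fit keeps Sham replicates 3, 4 and 5, and replicates 4 and 5 had the lowest Sham values of these genes. Over the 26 alternatives the log2 difference ran from 0.12 to 1.29 for Fmod, 0.11 to 0.86 for Prelp and 0.40 to 1.57 for Comp.

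Directions turned for differences that did not pass. In MI against Sham, Prelp was 0.0203 with quantile normalization, 0.0864 with mitochondrial genes left out, 0.0085 with voom, 0.31 without the mixed Sham libraries and -0.19 to 0.11 on leaving out single libraries. Dcn was -0.0441 without the 3 libraries that stand apart, -0.0127 without Sham replicates 4 and 5 and -0.0441 to 0.16 on leaving out single libraries, and Fmod was -0.31 without Sham replicates 4 and 5. In GSK against MI, Lum was -0.0026 with voom, -0.0049 without the 3 libraries that stand apart and -0.12 to 0.22 on leaving out single libraries. On leaving out single libraries Aspn ran from -0.32 to 0.26, Comp from -0.23 to 0.22 and the log2 ratio Fmod/Prelp from -0.37 to 0.15. Without the 3 libraries that stand apart Vcan was 0.0234 and the log2 ratio Aspn/Ogn 0.0344, and in GSK against Sham Ogn was -0.14.

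Counts over all genes moved as well. In GSK against MI, 3 genes were higher with a pseudocount of 0.1 and 1 with voom, and 0 to 204 were higher and 0 to 188 lower on leaving out single libraries. In GSK against Sham, 592 were lower without a filter, 425 with mitochondrial genes left out, 1634 when only the 2 groups were fitted, 779 higher and 463 lower without the mixed Sham libraries, and 336 higher and 111 lower without Sham replicates 4 and 5. Leaving out single libraries gave 773 to 1562 higher and 412 to 1326 lower. In MI against Sham 1727 were lower without Sham replicates 4 and 5. The cause was not tested. Some of these fits held fewer libraries, while those with another pseudocount, filter or scaling, or with voom, held all 15.

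Replicate numbers did not pair the libraries (correlations of -0.41 to 0.49, and not every pair above 0.1). With a replicate block, Comp in MI against Sham (adjusted p = 0.0636) and Lum in GSK against Sham (0.0543) lost their calls, 4 and 3 members were called in these comparisons, and the totals over the whole table were 2549 higher with 2472 lower (MI against Sham) and 924 higher with 535 lower (GSK against Sham). No ratio was refitted with the block. Depth limits Acan, at 4 to 239 fragments a library.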
